A study of Mus musculus with 56 samples.

Results

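Running wheels were set against locked wheels in male mice labelled as lacking HuR in skeletal muscle, with 7 running mice (MHE) and 7 locked mice (MH), which are 14 of the 56 mice measured. Gastrocnemius RNA was sequenced from C57Bl/6 mice floxed at Elavl1, the gene of HuR, and carrying Cre recombinase under the Mlc1f promoter of Myl1, which is active in fast muscle fibres, so that other cells of the tissue keep HuR by design. The controls were littermates with the floxed alleles. Each combination of sex (M or F), genotype label (C or H) and wheel (E for running) held 7 mice, all kept on chow to 5 months of age, and the running mice had the wheel free for the last 10 weeks.

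HuR is an RNA-binding protein that attaches to AU-rich and U-rich stretches of many messages and commonly lengthens their life. Voluntary running is known to move mouse hindlimb muscle toward oxidative fuel use, with more mitochondria, more capillaries and fewer of the fastest fibres. Insulin is made in mice from 2 genes, Ins1 and Ins2, whose textbook site of expression is the pancreatic beta cell, and adult muscle is a target of the hormone rather than a source of it.

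Between running and locked labelled males, 6 of 14321 genes passed the test, 3 higher and 3 lower. Ins1 and Ins2 rose from near 0 to several counts per 1000000 (CPM) in every running mouse. Whether these reads came from the muscle or from other material was not tested. Rbms3, an RNA-binding protein gene, rose by 0.48 on the log2 scale. Arl3, a small GTPase gene, Adgrl1, an adhesion receptor gene, and Jsrp1, a gene of the calcium release machinery, fell by 0.36, 0.66 and 0.30. The test was limma on voom-weighted log2 CPM over all 8 groups, with Benjamini-Hochberg adjustment and a call at an adjusted p of 0.05 or less. Called genes were 0.0419% of those tested, and called rises were 0.0209%. At an unadjusted p under 0.05 there were 804 genes higher, 5.61% of those tested, and 1017 lower, 7.1%. In the same fit 464 genes were called between running and locked control males, 3.24%, and 551 between running and locked labelled females, 3.85%.

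**Figure D1:**
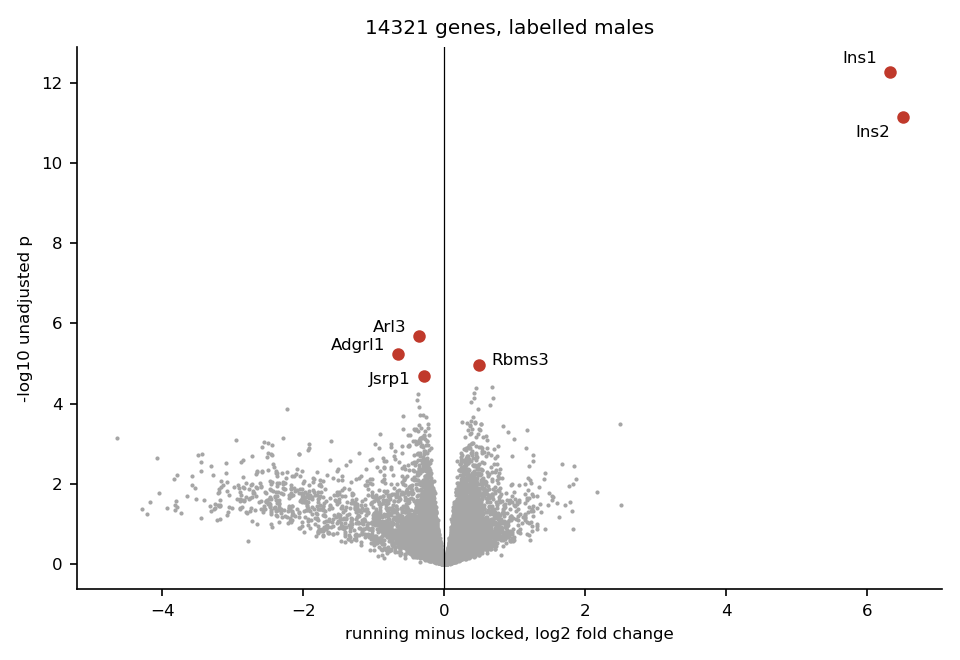
Each point is 1 of the 14321 genes tested in labelled males, with the log2 fold change of running minus locked on the x axis and -log10 of the unadjusted p on the y axis; the 6 called genes are red. Ins1 and Ins2 stand alone at the upper right, and the grey points beyond -2 form a low band on the left.

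Depth was 10330165 to 18394231 counts in the locked and 8038666 to 14850682 in the running labelled males. Elavl1 was not lower in the mice labelled HuRm-/-. Its level was 45.4 to 58.6 CPM in the locked labelled males and 53.2 to 69.8 in the running ones, against 42.0 to 61.9 and 27.8 to 60.9 in the locked and running control males, where running controls 10 and 13 had 30.8 and 27.8. The fitted difference from controls was -0.05 among locked males (adjusted p = 0.892 by limma), and among running males Elavl1 was higher in the labelled mice by 0.44 (adjusted p = 0.0242 by limma). By qPCR, the paper reports less Elavl1 message in gastrocnemius of HuRm-/- mice than of controls. The labels name a kit that reads the 3' end of messages, and a read outside the deleted part of the gene does not check the deletion. Directions below therefore belong to mice labelled HuRm-/-. Myl1, the gene whose promoter drives Cre, ranged from 2320 to 13730 CPM with a median of 6417 in locked labelled males. Among these, mice 8 and 12 had 13110 and 13730. In running labelled males it ran from 5420 through 5776 to 10820 CPM. Control males had 8834, 11260 and 14050 CPM locked and 10290, 11150 and 13610 running, as lowest, median and highest. Locked labelled mice 8 and 12 lay within the range of locked controls, as did the highest running labelled mouse. What set these mice apart was not tested. Muscle markers made up 136800 to 152900 CPM in locked and 119200 to 151600 CPM in running labelled males, so the tissue label matched its defining genes.

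Markers of other tissues varied between libraries. The summed level of 24 liver genes was 171.7 to 1073 CPM in locked and 32.4 to 830.7 CPM in running labelled males, lowest in running mice 1 and 4 (32.4 and 36.7 CPM). All 24 had a fitted difference below 0, with a median of -2.09, and 20 had an unadjusted p under 0.05 without a call. Without running mice 1 and 4 the median was -0.56, 2 of the 24 were above 0, and 0 had an unadjusted p under 0.05. The summed level of 10 brain genes was 379.9 to 1453 CPM in locked and 356.5 to 452.3 CPM in running mice, highest in locked mice 9 (1453) and 24 (818.8). All 10 brain genes had a fitted difference below 0, with a median of -2.27, and 5 had an unadjusted p under 0.05 without a call. Without locked mice 9 and 24 the median was -0.76 and 1 had an unadjusted p under 0.05. Fitted differences over the 10 adipocyte genes had a median of 0.45, those of 14 leukocyte genes 0.34, of 10 Schwann cell and nerve genes 0.37 and of 12 fibroblast and tendon genes 0.26. No marker in the table was at 0 in every mouse of a labelled male group. The table held no gene with a total under 168 counts, and 14 of 16 leukocyte markers were in it. In bulk tissue, fewer cells of a type and less RNA per cell cannot be told apart.

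Ins1 (chromosome 19, 52264297 to 52265476, plus strand, GRCm38) and Ins2 (chromosome 7, 142678656 to 142743381, minus strand) are protein-coding genes with no overlapping gene among those listed. Their messages share 7 windows of 50 bases, the labelled read length, out of 1013 in Ins1 and 1504 in Ins2, or 0.691% and 0.465%, so that few reads could be assigned to either. The promoter window of Ins1 is shown because the insulin genes were the largest rises and moved together. It is the RefSeq window from 250 bases before to 50 after the start, at chr19:52264047-52264346 on the plus strand of GRCm38.p6, with matches to GCCATCTG in capitals. This E-box sequence is known from rodent insulin promoters as a binding site for beta-cell helix-loop-helix factors.

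Ins1: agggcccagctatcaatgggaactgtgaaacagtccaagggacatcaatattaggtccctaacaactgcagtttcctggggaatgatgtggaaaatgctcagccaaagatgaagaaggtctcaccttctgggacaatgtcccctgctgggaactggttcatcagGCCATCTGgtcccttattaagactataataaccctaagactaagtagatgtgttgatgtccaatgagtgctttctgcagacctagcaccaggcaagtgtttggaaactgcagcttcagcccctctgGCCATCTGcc

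The motif occurred 2 times in this window on the plus strand and 0 times on the minus strand, from bases 165 and 291. Of 32851 promoter windows of the same length, 435 (1.32%) held it on either strand. A match of letters is not a bound site. Promoter windows were found for 4 of the 6 called genes.

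The Ins1 count was 50 to 106 in the 7 running labelled males and summed to 504, and in the 7 locked mice it summed to 4. On the normalised scale, Ins1 had a lowest level of 4.13, a median of 5.38 and a highest of 10.4 CPM in running mice, and 0, 0.0699 and 0.0875 CPM in locked mice. Every running mouse lay far above every locked mouse. The ratio of summed counts per total was 144, with an exact 95% interval of 55.9 to 531 that covers counting error only. The fitted log2 fold change, which depends on the prior count where a group is near 0, was 6.31 ± 0.68 (SE; adjusted p = 7.67e-09 by limma).

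The Ins2 count was 76 to 136 in the running labelled males, with a sum of 753, against a sum of 8 in the locked mice. Ins2 ran from 5.41 through a median of 9.56 to 11.9 CPM in running mice and from 0 through 0.0819 to 0.28 CPM in locked mice. Here too the groups did not overlap. The ratio was 107.6 (exact 95% interval 54.3 to 250.1), and the fitted log2 fold change was 6.50 ± 0.75 (adjusted p = 5.02e-08 by limma). Both insulin genes passed the expression filter only through the running labelled males, the group where they were high. Their p-values therefore describe the fit and are not independent support. The same holds for their differences by genotype label and sex below.

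Outside the running labelled males, the insulin genes were raised in 1 mouse. Running control male 28 had 86 Ins1 and 108 Ins2 counts, or 6.84 and 8.59 CPM, which lies within the range of the running labelled males. The remaining 48 mice, locked labelled males included, had 0 to 3 Ins1 counts and 0 to 6 Ins2 counts. Ins1 was at 0 in 32 of them and Ins2 in 22. The number of Ins2 counts per Ins1 count ran from 1.01 in running mouse 7 to 2.72 in running mouse 21. Among females labelled HuRm-/-, the fitted wheel difference was 0.31 ± 0.95 for Ins1 and 0.56 ± 1.08 for Ins2 (adjusted p = 0.913 and 0.842 by limma).

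**Figure D2:**
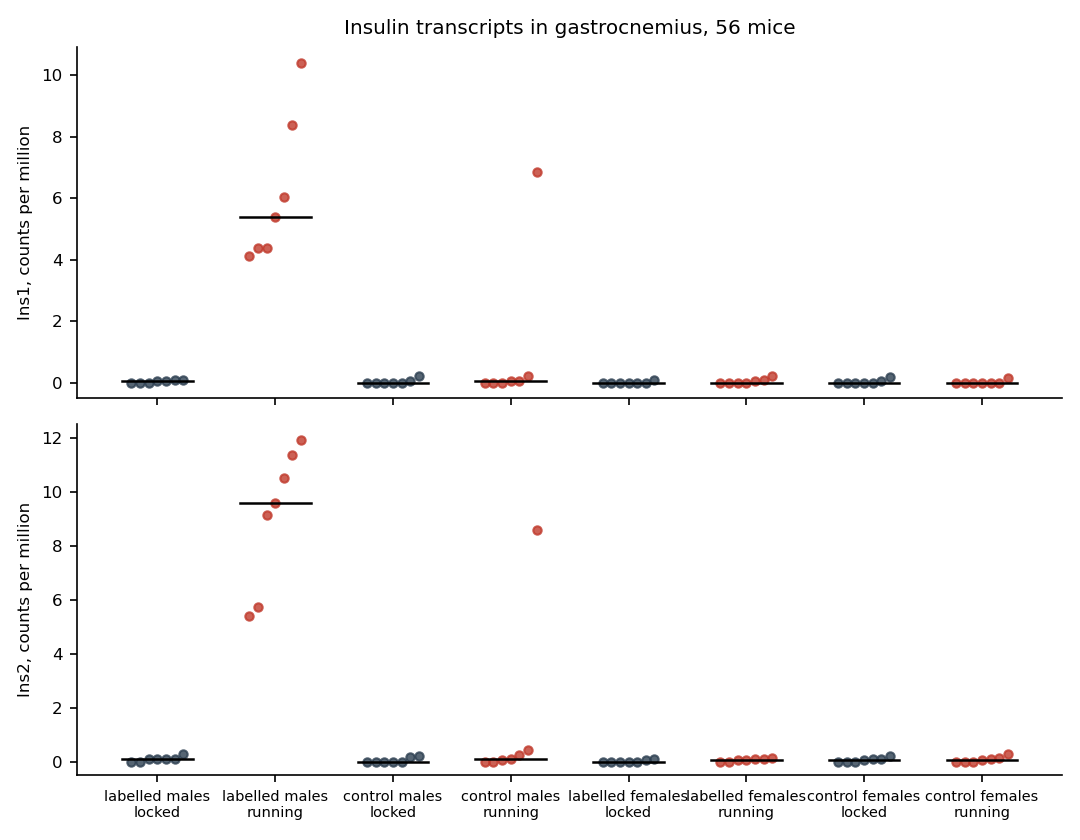
Levels of Ins1 (upper) and Ins2 (lower) in CPM on the y axis for each of 56 mice in 8 groups of 7 on the x axis, locked in dark blue and running in red; lines are medians. All 7 running labelled males stand between 4.13 and 11.9 CPM, and control male 28 is the one other mouse raised.

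Other transcripts of hormone-secreting cells were then looked up, a choice made after the insulin values were seen. Of 17 such genes, 10 were in the table. Somatostatin (Sst) had 1 to 4 counts with a median of 3 in running and 0 to 183 with a median of 5 in locked labelled males. The granule protein gene Chga had 1 to 9 with a median of 3 in running and 0 to 104 with a median of 10 in locked mice. Pcsk2, a prohormone-cleaving protease gene, had 1 to 6 with a median of 4 and 0 to 285 with a median of 13. Pcsk1 had 0 to 6 and 1 to 12. Sytl4, a gene of secretory granule docking, had 5 to 17 counts in running and 0 to 8 in locked mice, and Mafa, a beta-cell transcription factor gene, 2 to 8 and 0 to 11. The medians of Sst, Chga and Pcsk2 were lower in running mice than in locked mice, with no test run. So were those of Chgb (2 against 9), Scg2 (2 against 7), Scg5 (1 against 5) and Slc2a2 (2 against 10). Those of Sytl4 (9 against 2), Pcsk1 (4 against 3) and Mafa (4 against 3) were higher in running mice. Ins1, Ins2 and Sst together were highest among locked labelled males in mice 9 and 24 (9.949 and 3.775 CPM). No locked labelled male had more than 0.0875 CPM of Ins1 or 0.28 CPM of Ins2, so both sums were mostly Sst. Mice 9 and 24 also had the most brain transcripts, and the part of such transcripts in these values was not tested. The other 7, Iapp, Gcg, Ppy, Pdx1, Nkx6-1, G6pc2 and Slc30a8, were not in the table and could not be looked up. Genes in it had a total of at least 168 counts, and 3 of 12 pancreas markers were in it.

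Rbms3 (chromosome 9, 116572746 to 117629913, minus strand) encodes an RNA-binding protein of the cytoplasm. Its level ran from 21.5 through a median of 23.5 to 26.04 CPM in running labelled males and from 13.9 through 16.6 to 22.4 CPM in locked ones. Locked mouse 12, at 22.4 CPM, was the sole locked mouse within the running range, and 4 of 7 running mice lay above all locked mice. The log2 fold change was 0.48 ± 0.10 (SE; adjusted p = 0.0318 by limma). The call was lost in 14 of 29 alternatives, and in 1 more, DESeq2 without locked mice 9 and 24, no adjusted p was given. The adjusted p ran from 0.00456 to 0.164 over the others. The call was lost, for example, without any 1 of locked mice 8, 9, 11, 15, 23 and 24 or running mice 1, 6, 7 and 22. Gm17396 overlaps Rbms3 on the other strand.

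Arl3 (chromosome 19, 46531096 to 46573198, minus strand) encodes a small GTPase that releases lipid-modified cargo into cilia. It ran from 46.8 through 50.9 to 58.4 CPM in running mice and from 56.5 through 65.8 to 74.7 CPM in locked mice, and 6 of 7 running mice lay below all locked mice. The log2 fold change was -0.36 ± 0.07 (adjusted p = 0.00986 by limma). In control males Arl3 also fell with running, by 0.25 (adjusted p = 0.0244 by limma), and the difference between the genotype labels was -0.11 ± 0.10 (adjusted p = 0.764). Arl3 lost its call in 2 of 29 alternatives, the fit of the 14 labelled males alone and the fit without running mouse 6.

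Adgrl1 (chromosome 8, 83900105 to 83941954, plus strand) encodes latrophilin 1, an adhesion receptor found at synapses. Running labelled males had 24.9, 27.1 and 35.9 CPM as the lowest, median and highest value, and locked ones 36.2, 41.1 and 67.1. The groups did not overlap, though by a narrow margin, and locked mice 9 and 24 were the highest at 67.1 and 53.8 CPM, the mice that also had the most brain transcripts. The log2 fold change was -0.66 ± 0.13 (adjusted p = 0.0209 by limma). Without mice 9 and 24 its fold was -0.47 and it was not called by limma or by edgeR (adjusted p = 0.178 and 0.204), while DESeq2 called it at -0.48 (adjusted p = 0.0495). In limma it was also not called without mouse 9 (-0.55, adjusted p = 0.117), without mouse 24 (-0.62, adjusted p = 0.0519), or without any 1 of running mice 2, 6, 7 and 22 (-0.66 to -0.63). The part of these transcripts in its fall was not tested. Gm10644 overlaps Adgrl1 on the other strand.

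Jsrp1 (chromosome 10, 80808496 to 80813498, minus strand) encodes JP-45, a protein of the sarcoplasmic reticulum that binds the voltage sensor and calsequestrin. It ran from 172.4 through 216.0 to 222.1 CPM in running mice and from 218.9 through 257.6 to 283.4 CPM in locked mice, and 5 of 7 running mice lay below all locked mice. The log2 fold change was -0.30 ± 0.06 (adjusted p = 0.0482 by limma), and the call was lost in 11 of 29 alternatives, among them the fits without any 1 of locked mice 8, 11, 12, 15 and 23 or running mice 2, 6, 7 and 21.

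**Figure D3:**
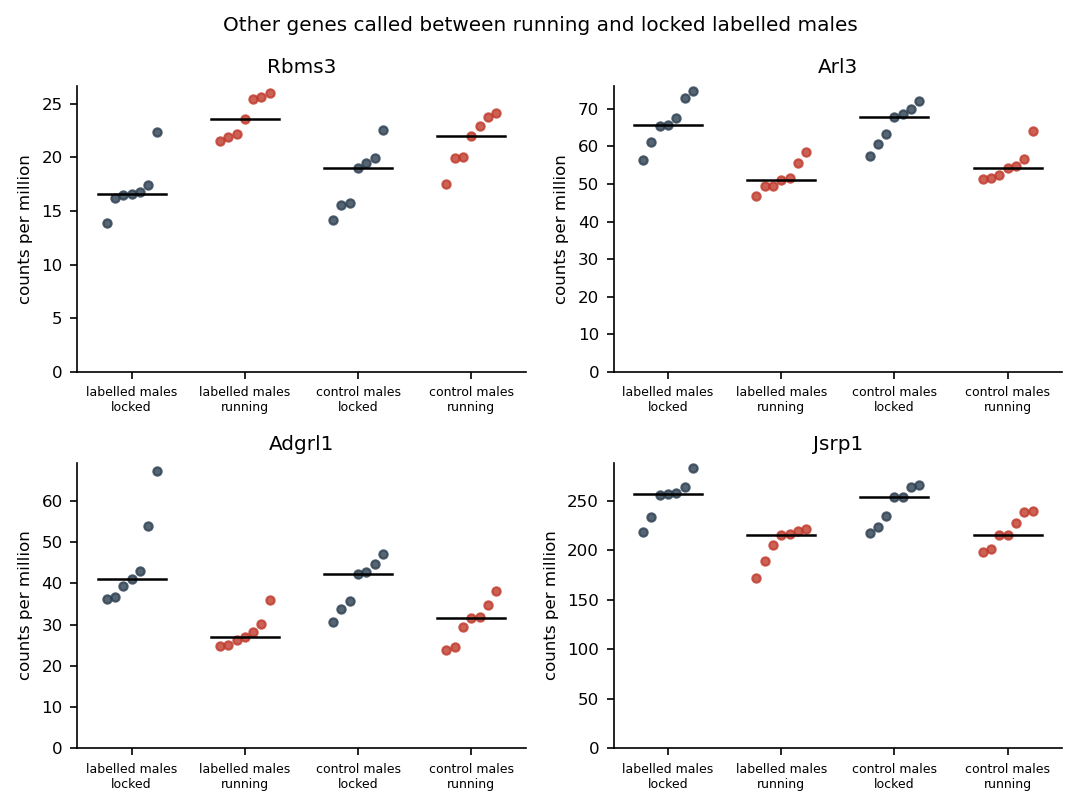
Levels of Rbms3, Arl3, Adgrl1 and Jsrp1 in CPM (y axis, from 0) for each male mouse, locked in dark blue and running in red; lines are medians of 7 mice. Running labelled males reached 26.04 CPM for Rbms3 and fell to 46.8, 24.9 and 172.4 CPM for the others, and control males are shown for comparison.

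Without overlap of the 7 and 7 mice, 21 genes were higher in the running labelled males (0.147% of those tested) and 13 lower (0.0908%). Beside the insulin genes, the named genes among them were Fosl2, higher, and Adgrl1, lower. The genes next below the threshold, given as fitted values, were Egln3 (0.67 ± 0.15, adjusted p = 0.0714 by limma), an oxygen-sensing hydroxylase gene, and Adgre5 (0.44 ± 0.10, adjusted p = 0.0714), an adhesion receptor of leukocytes. On the other side stood Camk2b (-0.38 ± 0.09, adjusted p = 0.0793), a calcium-dependent kinase gene, and Zfp106 (-0.39 ± 0.09, adjusted p = 0.0909), a gene needed to keep motor neurons attached to muscle. Egln3 ran from 25.99 through 30.04 to 45.7 CPM in running and from 12.4 through 19.3 to 29.8 CPM in locked mice. It rose in control males (0.61, adjusted p = 0.0138), labelled females (0.69, adjusted p = 0.0014) and control females (0.66, adjusted p = 0.00211), by limma.

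To ask how the muscle programmes known from training looked, 22 lists were followed. They held 544 genes, of which 529 were in the table and 525 were tested, and Jsrp1 was the one member called. The lists are described by counts of signs and medians, beside 50.1% of all tested genes above 0 and a median of 0.0007 over all genes. Members share libraries and are not independent.

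Matrix genes, which build the collagen scaffold around fibres, had 36 of 37 fitted differences above 0, with a median log2 fold change of 0.35. Of these, 19 had an unadjusted p under 0.05 on the higher side, and none was called. Col4a1, a basement membrane chain, ran from 96.9 through 119.0 to 129.4 CPM in running mice and from 81.2 through 91.3 to 109.8 CPM in locked mice (0.32 ± 0.08, adjusted p = 0.139 by limma). The collagen hydroxylase gene P4ha1 had 0.37 ± 0.11 (adjusted p = 0.156 by limma). The list had a median of 0.35 in control males too, and of -0.06 in labelled females and -0.51 in control females, where 16 of the 37 members were called lower beside 4.23% of all genes tested.

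Capillary genes had 23 of 26 fitted differences above 0 and a median of 0.15, with 11 at an unadjusted p under 0.05. The VEGF receptor gene Kdr ran from 75.7 through 83.7 to 102.6 CPM in running mice and from 50.0 through 70.1 to 78.5 CPM in locked mice, and 6 of 7 running mice lay above all locked mice (0.39 ± 0.10, adjusted p = 0.139 by limma). The endothelial cadherin gene Cdh5 had 0.30 ± 0.09 (adjusted p = 0.164 by limma).

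Immediate early genes, which respond within minutes to stimulation, had 23 of 25 above 0 with a median of 0.36. Fosl2, an AP-1 subunit gene, ran from 19.3 through 20.7 to 24.6 CPM in running mice and from 11.1 through 17.7 to 18.6 CPM in locked mice, without overlap (0.41 ± 0.10, adjusted p = 0.133 by limma). In control males the list's median was -0.03 and in labelled females -0.12. Heat shock and chaperone genes had 24 of 27 above 0 with a median of 0.19, and Dnaja4 had 0.45 ± 0.16 (adjusted p = 0.257 by limma).

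Contractile genes were listed by fibre type, and none was called. Of the fast-fibre genes, 3 of 16 tested were above 0, with a median of -0.18, and 9 were lower at an unadjusted p under 0.05. Myh4, the myosin of the fastest fibres, ran from 22950 through 25500 to 27460 CPM in running mice and from 24420 through 32880 to 36790 CPM in locked mice (-0.34 ± 0.10, adjusted p = 0.156 by limma). The locked mouse with 24420 CPM was mouse 24, and the next lowest had 31590. Myh1 and Myh2, the myosins of intermediate fast fibres, had 0.35 ± 0.12 and 0.28 ± 0.13 (adjusted p = 0.235 and 0.355 by limma). Of 14 slow-fibre genes, 11 were above 0, with a median of 0.08, which was 0.21 without locked mice 9 and 24. Without running mice 1 and 4 it was 0.06, and 9 were above 0. The stretch-sensor genes Csrp3 and Ankrd2 had 1.17 ± 0.31 and 0.79 ± 0.27 (adjusted p = 0.139 and 0.219 by limma), while the slow myosin gene Myh7 had 0.00 ± 0.20.

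Excitation-contraction genes had 4 of 21 above 0 and a median of -0.14. Beside Jsrp1, Ryr1, the calcium release channel gene, had -0.41 ± 0.12 and Cacna1s, the voltage sensor gene, -0.29 ± 0.09 (adjusted p = 0.156 and 0.186 by limma). Glycolysis genes had 6 of 25 above 0, a median of -0.12 and 8 lower at an unadjusted p under 0.05. Aldoa ran from 5936 through 6784 to 8375 CPM in running mice and from 7216 through 8392 to 10270 CPM in locked mice (-0.25 ± 0.08, adjusted p = 0.193 by limma). In control males the glycolysis median was 0.02.

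Oxidative genes were near 0. The nuclear-encoded respiratory chain had 23 of 49 above 0 and a median of -0.01, the citrate cycle 13 of 25 and 0.01, fatty acid oxidation 24 of 33 and 0.04, mitochondrially encoded transcripts 4 of 10 and -0.04, and PGC-1 coactivators and mitochondrial regulators 11 of 27 and -0.05. In control males, where 1.49% of all genes tested were called higher with running, so were 9 of 49 respiratory chain genes, 4 of 25 citrate cycle genes and 6 of 33 fatty acid genes. The test of the difference between genotype labels, given below, called 0.0349% of all genes tested and no member of the 22 lists. Ppargc1a, the coactivator known to drive mitochondrial genes in trained muscle, had 0.03 ± 0.10 in labelled males (adjusted p = 0.947 by limma). Without running mice 1 and 4, the respiratory chain had 10 of 49 above 0 and a median of -0.06.

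Clock genes had 6 of 19 above 0. Per2 ran from 2.45 through 6.05 to 8.54 CPM in running mice and from 7.35 through 11.5 to 13.3 CPM in locked mice, and 5 of 7 running mice lay below all locked mice (-1.06 ± 0.33, adjusted p = 0.19 by limma). Per2 and Hlf fell in control males by 1.34 and 0.87 (adjusted p = 0.00939 and 0.00232 by limma). Hlf had -0.61 ± 0.18 in labelled males (adjusted p = 0.156 by limma).

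The remaining lists held no called gene. Medians were 0.11 for myogenic regulators, 0.10 for glucocorticoid-responsive genes, 0.08 for muscle mass control, 0.07 for the neuromuscular junction, -0.03 for glycogen, -0.02 for ribosomal proteins and -0.05 for polyamine metabolism. Among AU-rich element binding proteins, relatives of HuR in function, 8 of 13 were above 0. The decay factors Zfp36l1 and Zfp36 had 0.38 ± 0.09 and 0.45 ± 0.16 (adjusted p = 0.0909 and 0.252 by limma). The nerve-cell HuR relatives Elavl2, Elavl3 and Elavl4 had -2.81, -3.19 and -3.07 (adjusted p = 0.389, 0.453 and 0.389 by limma), beside the brain markers above.

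**Figure D4:**
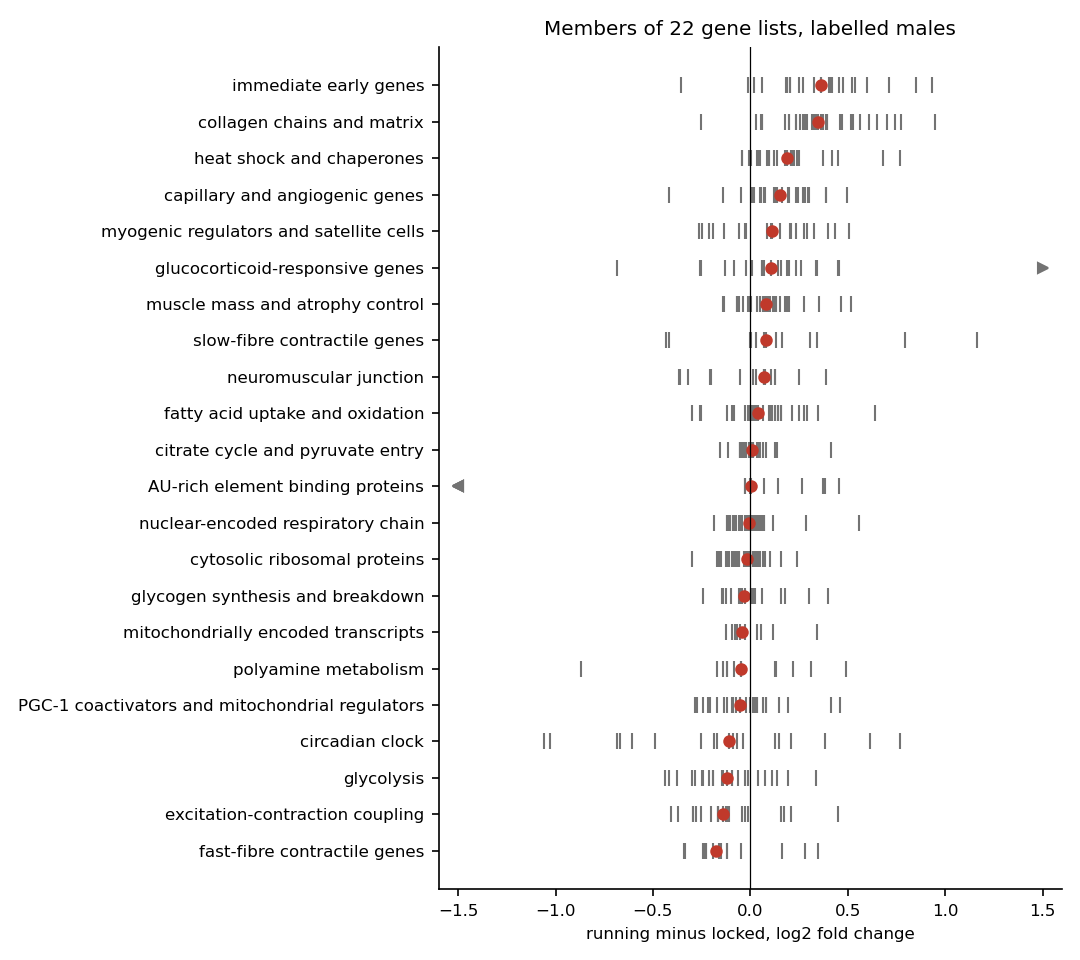
Grey ticks are the log2 fold changes (running minus locked labelled males, x axis) of the tested members of 22 gene lists (y axis), red points their medians, and arrowheads members beyond 1.5 in either direction. Immediate early and matrix genes have the highest medians (0.36 and 0.35), and fast-fibre genes the lowest (-0.18).

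Whether running acted differently by genotype label in males was tested as the difference of both wheel differences, and 5 genes passed, 0.0349% of those tested. For Ins1 the difference was 5.74 ± 1.11 (adjusted p = 0.0242 by limma), and for Ins2 it was 5.31 ± 1.21 and missed the threshold (adjusted p = 0.122). Without running control male 28 the differences were 6.55 and 6.07 (adjusted p = 0.000636 and 0.0045). Senp3, a nucleolar SUMO protease gene, had a difference of 1.61 ± 0.29 (adjusted p = 0.0108). Its level was 3.17, 7.83 and 11.6 CPM in locked and 7.50, 9.89 and 15.8 in running labelled males as lowest, median and highest, and 10.7, 12.04 and 16.7 against 3.48, 5.45 and 8.78 in locked and running control males. Senp3 fell in control males by 1.14 (adjusted p = 0.000666), without overlap, and had 0.47 ± 0.21 in labelled males (adjusted p = 0.324 by limma).

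Cd59a, a complement inhibitor gene, had a difference of -0.90 ± 0.18 (adjusted p = 0.0273 by limma). It rose in control males by 0.75 (adjusted p = 0.000256), from a median of 53.9 to 88.4 CPM, and stood at medians of 58.4 and 60.8 CPM in locked and running labelled males. Slc25a11, the mitochondrial oxoglutarate carrier gene, had -0.44 ± 0.09 (adjusted p = 0.0319), with a rise of 0.38 in control males and medians of 127.8 and 128.9 CPM in locked and running labelled males. Inpp5k, a phosphoinositide phosphatase gene that damps insulin signalling, had 0.60 ± 0.13 (adjusted p = 0.0414), with a fall of 0.30 in control males and 0.30 ± 0.09 in labelled males (adjusted p = 0.156 by limma). With edgeR's quasi-likelihood test in place of limma 0 differences between genotype labels passed (1495 at an unadjusted p under 0.05), and 0 passed in limma with the 28 males alone (1325), where the main limma fit had 1275 at that level and DESeq2 called 13. Without locked mouse 12 the calls of Ins1, Cd59a, Slc25a11 and Inpp5k were lost, and Senp3 kept its call with any 1 labelled male left out. Cd59a also lost its call without running mouse 1 or 2, Slc25a11 without locked mouse 11 or 15 or running mouse 6 or 7, and Inpp5k without any 1 of locked mice 11, 15, 23 and 24 or running mice 6, 7, 21 and 22. Inpp5k lost its call without running control male 28 too. No other control male was left out singly.

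Between the sexes of mice labelled HuRm-/-, the wheel differences differed at 193 genes, 95 more positive in males (0.663%) and 98 more negative (0.684%). The 5 genes with the smallest p-values were Phkg1, Helz, Ppargc1b, Camk2b and 1810022K09Rik. Phkg1, the catalytic subunit of glycogen phosphorylase kinase in muscle, had a difference of -0.58 ± 0.10 (adjusted p = 0.0026 by limma), with -0.24 ± 0.07 in males (adjusted p = 0.156) and a rise of 0.33 in females (adjusted p = 0.00236). It ran from 119.1 through 122.7 to 150.8 CPM in running and from 135.6 through 147.9 to 179.8 CPM in locked labelled males. Several listed genes overlap Phkg1 in the annotation, and its counts may be shared with them.

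Ppargc1b, a coactivator of mitochondrial genes related to Ppargc1a, had a difference of -0.74 ± 0.13 (adjusted p = 0.0026 by limma). It rose in labelled females by 0.62 (adjusted p = 2.82e-05) and had -0.12 ± 0.09 in labelled males, where medians were 32.6 CPM locked and 29.4 running. Helz, an RNA helicase gene, had -0.62 ± 0.11 and Camk2b -0.70 ± 0.13 (adjusted p = 0.0026 for both). The uncharacterised gene 1810022K09Rik had 0.70 ± 0.13 (adjusted p = 0.00273), with a fall of 0.62 in labelled females and 0.08 ± 0.09 in labelled males. These 5 differences passed in each of 26 alternatives, none of which left out a labelled female. Rbms3 and both insulin genes also passed, with differences of 0.49, 6.01 and 5.94 (adjusted p = 0.0479, 0.00722 and 0.0111 by limma).

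Among the lists, 10 of 40 ribosomal protein genes were called with a more positive wheel difference in labelled males than in labelled females. The share over all genes tested was 0.663%, and no ribosomal protein gene was called with a more negative difference. Rps20, a gene of the small ribosomal subunit, had a difference of 0.49 (adjusted p = 0.00759 by limma). Its own wheel difference was 0.04 in labelled males and -0.45 in labelled females, where 22 of the 40 genes were called lower beside 1.8% of all genes tested. Csrp3 differed by 1.75 (adjusted p = 0.0302 by limma), with 1.17 in males and -0.58 in females. Among labelled females, Csrp3 ran from 46.85 through 67.17 to 411.3 CPM in locked mice and from 40.28 through 65.4 to 112.9 CPM in running ones. The female medians thus lay close together, and no fit of this difference left out a labelled female. Fosl2, Ier5 and Klf4 of the immediate early genes differed by 0.53, 0.89 and 0.88 (adjusted p = 0.0443, 0.0347 and 0.0215). Vegfa, the main capillary growth factor gene, differed by -0.57 (adjusted p = 0.0373), and Ucp3, a mitochondrial carrier gene, by -1.28 (adjusted p = 0.0479). Besides Vegfa, 1 of the 26 capillary genes was called, with a more positive difference, and that list's median difference was 0.14.

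**Figure D5:**
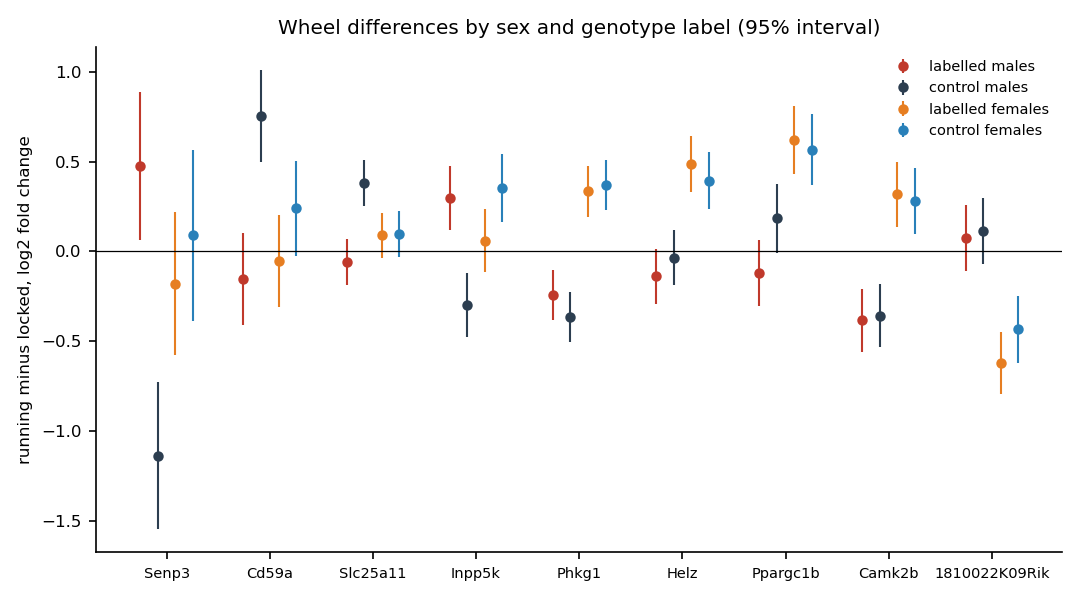
Log2 fold change of running minus locked (y axis) with its 95% interval for 9 genes (x axis) whose wheel difference varied by genotype label in males or by sex in labelled mice, in each of 4 pairs of groups of 7 mice. Senp3 lies at 0.47 in labelled males and -1.14 in control males, and Ppargc1b at -0.12 in labelled males and 0.62 in labelled females.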

How the data were processed

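Gastrocnemius RNA of 56 mice was sequenced, and the authors deposited 1 table of raw counts for 15539 genes, each with a total of at least 168. Per the labels, libraries were made with a QuantSeq 3' kit and read for 50 bases, while the study's methods describe a total RNA kit. The submitters' processing notes name GRCm38, R 4.0.3 and edgeR 3.38.4; the aligner and counter are not given in the sources used here.

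Groups came from the labels. Counts were normalised by TMM (edgeR 4.0.16), filtered by filterByExpr to 14321 genes and fitted with voom and limma 3.58.1 in R 4.3.3 over 8 group means. p-values were adjusted by Benjamini-Hochberg, and the scripts were tested on simulated data. CPM are TMM-scaled, and a CPM has 1000000 counts as its base. Depth was 6639782 to 21633091 counts. Where counts were low, intervals cover counting error only. Mice of a group differed by more than sampling noise (a chi-square statistic of 4.84 to 34.8 for each degree of freedom, over 21 pairs in each labelled male group) and were taken as separate mice.

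Named genes were the called genes, the smallest p up to 5 per direction, and the 2 smallest p per list or the called members. For each difference of wheel differences they were the 5 smallest p among those called. Others named as part of a list or as a marker were chosen after their values were seen. Positions are from GENCODE M21, which held 15503 of the 15539 genes. Alternatives were other tests, normalisations, filters, subsets of groups and leaving out labelled males or running control male 28. DESeq2 1.42.0 was one. Members and lists were chosen with earlier results of these data known.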

Additional observations from a re-analysis of the deposited data

Results flagged for a closer look

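Of 144 groups of 7 mice examined for the named genes, 14 held a mouse far from the other 6 by Dixon's test, and chance gives about 1 in 20. In running control male 28, Ins1 was 6.72 and Ins2 8.44 CPM of its total, where the next highest running control males had 0.217 and 0.404. Among locked labelled males, mouse 8 was highest for Ins2 (0.28 CPM) and Ndufa4 (271.3) and lowest for Fosl2 (11.1). Mouse 12 was highest for Rbms3 (22.4), Idh3b (190.7) and Rpl4 (317.2). Mouse 24 was lowest for Tpm1 (21730) and Myh4 (24420). Among running labelled males, mouse 1 was highest for Egln3 (45.7), mouse 4 for Gbe1 (93.2) and Lcn2 (3.34), and mouse 22 for Zfp36 (8.95).

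Wheel differences that differed by genotype label in males (log2 scale, labelled minus control) were 1.61 for Senp3, 5.74 for Ins1, -0.90 for Cd59a, -0.44 for Slc25a11 and 0.60 for Inpp5k. Those that differed by sex among labelled mice (males minus females) were -0.58 for Phkg1, -0.62 for Helz, -0.74 for Ppargc1b, -0.70 for Camk2b and 0.70 for 1810022K09Rik. Each passed the test of the difference itself.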

How the results depend on the processing

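The 6 calls between running and locked labelled males became 3 with a 1.5-fold minimum, 46 by edgeR's quasi-likelihood test (13 higher, 33 lower), 226 by DESeq2 (45 higher, 181 lower), 16 with sample quality weights and 2 with the 14 mice alone. All 6 were among the calls of both other tools. Of the lower calls, 26 of 33 and 136 of 181 had their highest level in locked mouse 9. Alternatives chosen after seeing the data gave 6 calls in limma and 6 in edgeR without locked mice 9 and 24, 50 in DESeq2 without them (Arl3, Adgrl1 and Jsrp1 among them, while Ins1, Ins2 and Rbms3 got no adjusted p from the tool), and 28 without running mice 1 and 4. Leaving out 1 labelled male at a time gave 2 calls (without running mouse 6, Ins1 and Ins2) to 10 (without locked mouse 12), and 3 without running mouse 7. Ins1 and Ins2 were not tested under a minimum of 10 counts in every mouse.

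The 5 differences between genotype labels became 0 by edgeR, 13 by DESeq2, 34 with weights, 3 at a minimum of 10 counts and 0 with the 28 males alone. They became 1 (without locked mouse 12) to 7 (without running mouse 4) when 1 labelled male was left out. The 193 differences between sexes became 103 with a 1.5-fold minimum, 331 with weights, 76 with the 28 labelled mice alone and 114 without locked mice 9 and 24. They became 114 to 234 with 1 labelled male left out (without locked mice 8 and 12). Mice left out singly were labelled males or running control male 28, so these fits do not vary the females or the other controls. For Myl1, never called, the fitted wheel difference of 0.16 ran from -0.0799 (without locked mouse 15) to 0.3451 (without locked mouse 12) with 1 mouse left out, and turned to -0.0055 by DESeq2 and -0.1425 by edgeR and -0.1465 by DESeq2 without mice 9 and 24. The cause was not tested, except that fewer genes or mice enter some of these fits. Of the values for single genes, 1867 kept direction and side of the threshold, a count that includes values with no adjusted p. Another 71 lost a call, 54 gained one and 4 changed direction.

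Running and locked labelled males share 0 mouse numbers. Running labelled males and females share 4, with correlations of deviations of 0.03 to 0.18. What else a shared number may mark was not tested. With the number as a replicate block the counts were 6, 5 and 193.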
